A study of Mus musculus with 12 samples.

Results

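The cells described here are early erythroid cells of mouse bone marrow, 4115 of 32701 cells (12.6%) in 12 single-cell RNA-seq libraries of c-Kit-enriched hematopoietic stem/progenitor cells. A cell was selected on 3 measured values. It held at least 5 UMIs of Car1 (carbonic anhydrase 1) per 10,000 UMIs of the cell, at least 1 UMI of the erythroid transcription factor Klf1, and fewer than 1000 UMIs per 10,000 of the adult globins Hbb-bs, Hbb-bt, Hba-a1 and Hba-a2 together. UMIs are unique molecular identifiers, which mark single captured mRNA molecules. The limits cut through a continuum. There were 107 early erythroid cells with Car1 between 5 and 6 per 10,000 and 115 cells just outside, between 4 and 5, that met the other limits. Globin stood between 800 and 1000 per 10,000 in 69 of the selected cells, and 69 further cells lay just above, at less than 1.25 times the limit. Another 846 cells met the Car1 and globin limits but held no Klf1 UMI.

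The 4 genotypes, on the C57BL/6 background, were each sampled at T1 (2 weeks), T2 (2 months) and T3 (4 months) after pIpC, with 1 library for each genotype and time point. Every mouse, WT included, received 5 injections of pIpC, at an age of 8 to 12 weeks per the labels, whereas the text of the study puts pIpC at a younger age. WT mice were Mx1-Cre negative, E2-KO mice were Mx1-Cre+; Ezh2 f/f, G12D mice were Mx1-Cre+; LSL-NRas G12D +/-, and G12D/E2-KO mice carried Mx1-Cre with both alleles. Mx1-Cre is switched on by the interferon response to pIpC and also acts outside the blood system, and WT mice had pIpC without the Cre. The 3 time points of a genotype are treated as its replicates. How many mice made up a library is not given in the sources used here, so p-values measure the spread between these libraries.

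Erythropoiesis starts from megakaryocyte-erythroid progenitors, in which GATA2 and KIT are active. GATA1 then replaces GATA2 at shared sites, KLF1 activates globin and red cell membrane genes, and signals from the erythropoietin receptor (EPOR) and KIT keep the dividing precursors alive through JAK2 and STAT5. Growing precursors make ribosomes and divide before haem and globin fill the cytoplasm. EZH2 is the methyltransferase of Polycomb repressive complex 2, and NRAS lies downstream of KIT and cytokine receptors.

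Promoters of genes that mark or drive this stage are shown so that the motifs of GATA factors and KLF1 can be read next to the transcription starts. Sequences are from RefSeq on GRCm38.p6, from 250 bases before to 50 bases after the start, with motif letters in capitals. RefSeq entries matched 4 of the 6 genes looked up. Car1 and Fam132a were the others.
Klf1, chr8:84901732-84902031, + strand: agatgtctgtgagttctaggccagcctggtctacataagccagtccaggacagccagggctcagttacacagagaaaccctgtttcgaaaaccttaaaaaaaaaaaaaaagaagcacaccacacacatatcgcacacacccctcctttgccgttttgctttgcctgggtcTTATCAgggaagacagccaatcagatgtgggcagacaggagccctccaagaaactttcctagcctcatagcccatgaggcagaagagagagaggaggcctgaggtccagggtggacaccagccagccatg
Gata1, chrX:7967861-7968160, - strand: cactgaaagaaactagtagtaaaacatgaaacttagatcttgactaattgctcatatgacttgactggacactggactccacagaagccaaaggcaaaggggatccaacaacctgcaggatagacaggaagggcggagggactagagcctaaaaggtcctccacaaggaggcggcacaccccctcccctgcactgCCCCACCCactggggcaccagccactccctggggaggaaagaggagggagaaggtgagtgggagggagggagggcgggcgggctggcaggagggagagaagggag
Epor, chr9:21963527-21963826, - strand: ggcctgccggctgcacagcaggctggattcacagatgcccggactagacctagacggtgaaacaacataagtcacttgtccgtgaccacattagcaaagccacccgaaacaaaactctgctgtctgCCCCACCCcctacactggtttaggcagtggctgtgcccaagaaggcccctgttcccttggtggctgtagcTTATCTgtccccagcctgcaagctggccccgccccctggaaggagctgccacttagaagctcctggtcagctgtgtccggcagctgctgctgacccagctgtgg
Mt2, chr8:94172368-94172667, + strand: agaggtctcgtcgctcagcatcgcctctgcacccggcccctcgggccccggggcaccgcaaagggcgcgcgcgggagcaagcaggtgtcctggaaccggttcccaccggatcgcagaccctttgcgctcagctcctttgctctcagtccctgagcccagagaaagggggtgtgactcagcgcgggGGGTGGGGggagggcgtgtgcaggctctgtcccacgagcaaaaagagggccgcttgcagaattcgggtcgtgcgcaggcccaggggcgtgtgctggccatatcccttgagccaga
The letters GATA with A or T before them and A or G after them, searched on both strands, stood 80 bases before the start of Klf1 and 54 bases before that of Epor. The letters CCNCACCC, where N is any base, stood 55 bases before the start of Gata1, 65 before that of Mt2 and 124 before that of Epor, on either strand. The first motif occurred in 29.8% and the second in 16.6% of 32851 promoters of this length, so a match is a description and not a binding site. The 2 motifs did not overlap in these promoters.

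The libraries were not all independent as deposited. In G12D T1, 2896 cells had a near-identical profile in G12D/E2-KO T1 (cosine of at least 0.910 over moderately abundant genes). They were dropped from G12D T1, which left 32701 of 35597 deposited cells and removed 188 cells that met the limits. The female-specific Xist was high in WT T3, E2-KO T3 and G12D T3 and in no other library. The early erythroid cells had median depths of 7550 to 15377 UMIs per library against 3781 to 6976 for all cells, and their summed UMIs per library ran from 1955442 to 7273881. Mitochondrial transcripts took a median of 4.29 to 5.63% of their UMIs.

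Mt2 and Fam132a, given as markers of early erythroid cells, took no part in the selection and both followed the label. They were given with earlier results of these data known, so they are no independent check of it. Mt2, a metallothionein that binds zinc and copper, stood at 661 ± 232 CPM in the early erythroid cells, 24.9 ± 15.1 in the globin-rich cells, 66.2 ± 49.1 in the Gata2-positive progenitors and 51.3 ± 34 in all other cells (mean ± SD over 12 libraries). Fam132a, which codes for C1QTNF12, a relative of erythroferrone, stood at 1017 ± 256 CPM in the early erythroid cells, 96.1 ± 49.7 in the globin-rich cells, 96.1 ± 58.6 in the Gata2-positive progenitors and 103 ± 45.3 in all other cells. CPM are UMIs of a gene per 1000000 UMIs summed over the cells of that kind in a library. Globin-rich cells are the 2607 cells with at least 1000 globin UMIs per 10,000, and Gata2-positive progenitors are 1017 cells with UMIs of Gata2 and Apoe that lay below the Car1 and globin limits. All other cells are every cell that is not early erythroid. In all 12 libraries both genes were higher in the early erythroid cells than in each of the other kinds.

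Selection fixed the levels of Car1 and Klf1. Car1 (chr3:14766216-14808368 in GENCODE M21 on GRCm38, - strand) was at 2467 ± 588 CPM in the early erythroid cells, 485 ± 179.9 in the globin-rich cells, 62.7 ± 17.5 in the Gata2-positive progenitors and 116 ± 51 in all other cells. Klf1 (chr8:84901928-84905291, + strand) was at 347 ± 64.1 CPM in the early erythroid cells, 411 ± 128 in the globin-rich cells, 57.8 ± 14.6 in the Gata2-positive progenitors and 43.4 ± 19 in all other cells. No test is attached to levels across kinds of cell, since the limits sorted the cells.

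Erythroid regulators differed in their order across the kinds of cell. The level of Gata2 in the progenitors was fixed by their selection. Gata2 was at 29.1 ± 17.6 CPM in the early erythroid cells, 3.71 ± 3.66 in the globin-rich cells, 321 ± 48.4 in the Gata2-positive progenitors and 23.8 ± 14.8 in all other cells. Gata1, the master regulator of the lineage, was at 146 ± 19.9 CPM in the early erythroid cells, 129 ± 33.7 in the globin-rich cells, 69.4 ± 12.5 in the Gata2-positive progenitors and 24.1 ± 10.4 in all other cells. Epor, the erythropoietin receptor, was at 64 ± 11 CPM in the early erythroid cells, 66.4 ± 17.2 in the globin-rich cells, 14.7 ± 4.37 in the Gata2-positive progenitors and 9.5 ± 3.85 in all other cells. Kit, the stem cell factor receptor on which the marrow was enriched, was at 69.1 ± 16.2 CPM in the early erythroid cells and 5.86 ± 3.28 in the globin-rich cells. So the early erythroid cells still carried Kit and little Gata2, and already had Gata1 and Epor at about the level of the globin-rich cells.

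Genes of the finished red cell were low in comparison. Slc4a1, the band 3 anion exchanger, was at 44.6 ± 21.6 CPM in the early erythroid cells against 812 ± 113 in the globin-rich cells. Alas2, the erythroid enzyme that starts haem synthesis, was at 21 ± 7.07 against 1437 ± 425. Tfrc, the transferrin receptor that brings in iron, was at 176 ± 48.5 against 396 ± 132. Growth genes had the opposite order. Myc was at 111 ± 21.7 against 9.48 ± 4.4, and Ncl, the nucleolar protein nucleolin, at 871 ± 121 against 116 ± 22.1. Of 24 ribosome biogenesis genes, 24 were higher in the early erythroid than in the globin-rich cells in all 12 libraries, beside 57.6% of all genes (the 9980 tested between genotypes below), where globin UMIs take up part of the total of the globin-rich cells. Of the 24, 23 were higher than in all other cells in all 12 libraries, beside 32.6% of all genes.

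**Figure D1:**
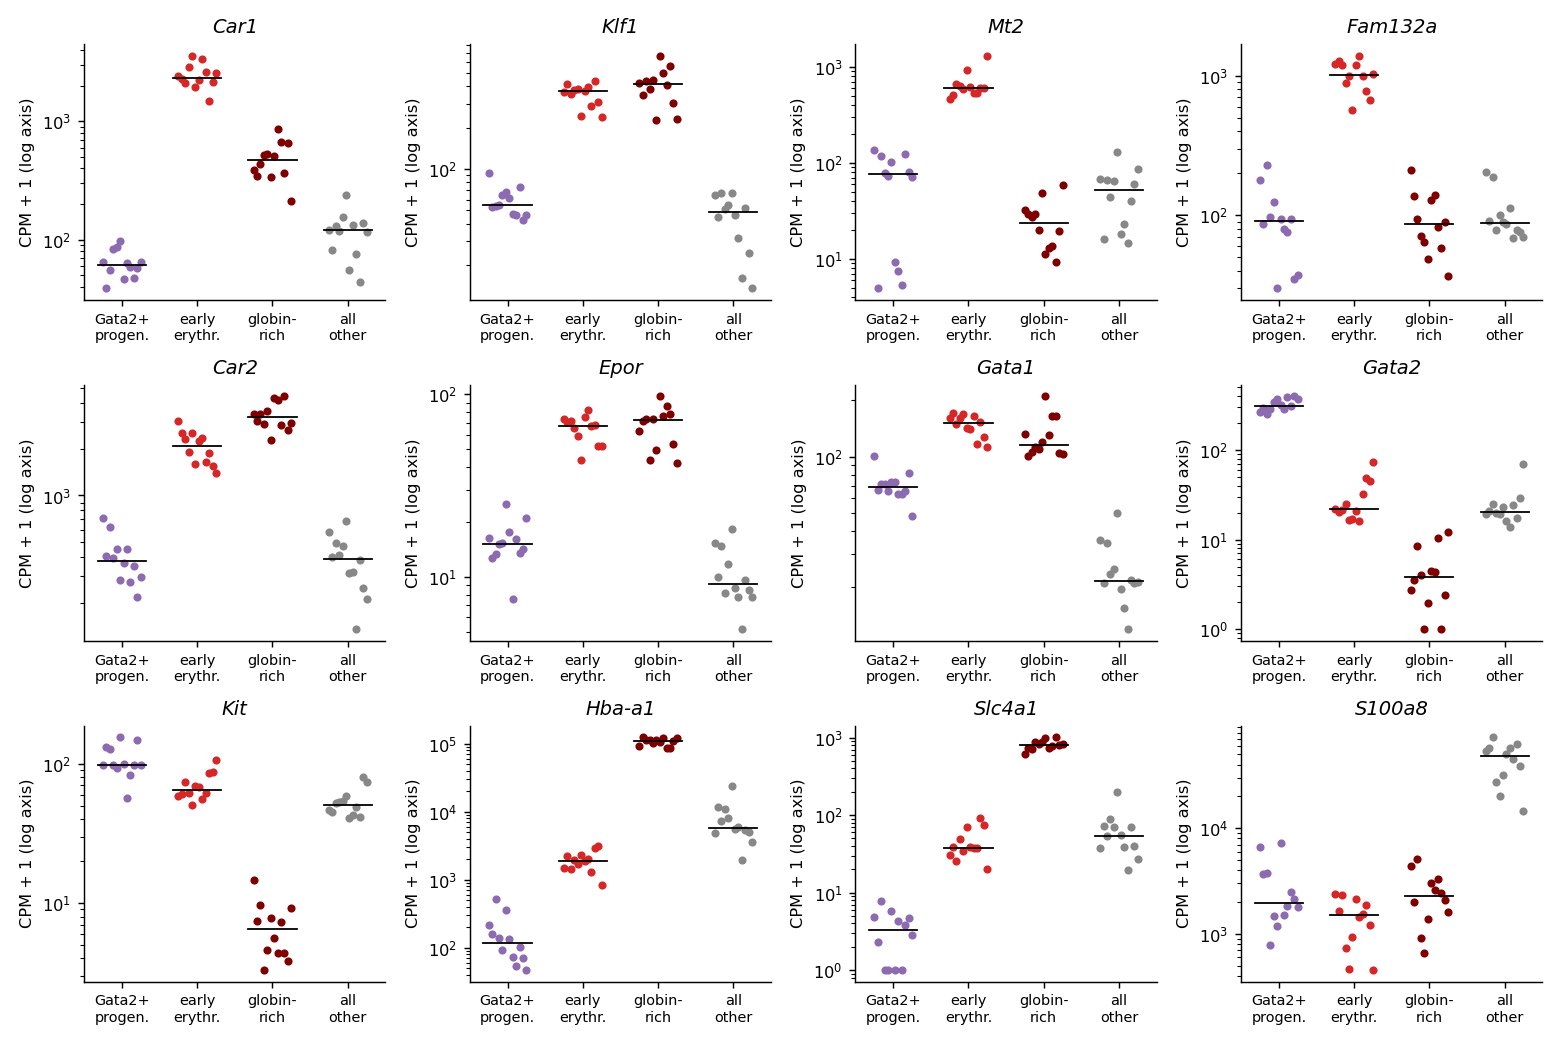
CPM + 1 (log axis) of 12 genes in 4 kinds of cell, with 1 point for each of the 12 libraries and a line at the median. Mt2 and Fam132a were highest in the early erythroid cells, Gata2 in the Gata2-positive progenitors, Hba-a1 and Slc4a1 in the globin-rich cells and S100a8 in all other cells. Car1, Klf1 and Hba-a1 took part in the selection, and Gata2 in that of the progenitors.

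The 20 genes with the highest ratio of mean CPM in the early erythroid cells to that in all other cells, among genes of at least 100 CPM, describe the rest of the profile. Car1 led with a ratio of 21.2, which the selection fixed. Sphk1, which makes the lipid signal sphingosine 1-phosphate, followed at 14.7. Mt2 was at 12.9, Col5a1 (a collagen chain) at 11.5, Gm15915 at 11.1 and Fam132a at 9.88. The others were Ces2g, Smim1 (which carries the Vel blood group antigen), Abcb4, Asb17os, Gm11837, Stard10, Cited4, Klf1, Ermap (which carries the Scianna antigen), Sept8, Gstm5, Minpp1, Bex4 and Nfia, with ratios down to 6.25. The gene lists that follow were also chosen with earlier results of these data known. Of a list of 20 early erythroid genes, 18 were higher in the early erythroid cells than in all other cells in all 12 libraries. So were 19 of 31 haem and iron genes and 13 of 25 red cell membrane genes, beside 32.6% of all genes. Against the globin-rich cells, 6 of the 20 early erythroid genes, 6 of the 31 haem and iron genes and 0 of the 25 membrane genes were higher in all 12 libraries, beside 57.6% of all genes.

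Most markers of other lineages were lower than in all other cells, but no marker of the 9 lists was at 0 in all libraries. All 10 late granulocyte markers, all 8 granulocyte-macrophage progenitor markers and all 8 monocyte markers were lower than in all other cells in all 12 libraries, beside 19.6% of all genes. Even so, summed late granulocyte markers reached 4732 to 6765 CPM in the early erythroid cells of WT, 1497 to 2456 in E2-KO, 4461 to 6774 in G12D and 1549 to 5722 in G12D/E2-KO. The other lists were less uniform. Lower in all 12 libraries were 10 of 13 stem and multipotent progenitor markers, 9 of 12 megakaryocyte, 7 of 9 basophil and mast cell, 6 of 9 B lymphoid, 4 of 11 macrophage and 3 of 7 T and NK markers. Msi2 of the stem cell list and Il1rl1 of the basophil and mast cell list were higher than in all other cells in all 12. In all other cells the same sum ran from 150602 to 190770.0 CPM in WT and from 58354 to 74499 in E2-KO. In both kinds of cell the sum was lower in E2-KO than in WT without overlap. Free RNA in the droplets and doublets cannot be told apart as a source of these counts.

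Within the selected cells, some other genes followed the globin content. In WT, Gata2 was at 41.2 ± 6.58, 17.4 ± 2.79 and 2.71 ± 2.91 CPM in cells with globin under 10, from 10 to under 100, and from 100 to under 1000 per 10,000 (mean ± SD, n = 3 libraries). Kit was at 108 ± 14.2, 60.5 ± 9.73 and 3.46 ± 2.36 CPM in the same ranges. Myb, which keeps progenitors dividing, was at 249.5 ± 3.59, 160.3 ± 13.7 and 23.2 ± 6.61 CPM. All 3 were lower in the high than in the middle range in all 12 libraries, as was Mt2, at 630.4 ± 98.3, 607 ± 96.3 and 104 ± 14.8 CPM in WT.

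Red cell genes ran the other way. Slc4a1 was at 2.73 ± 1.07, 4.42 ± 1.35 and 199 ± 40.1 CPM and Alas2 at 3.0 ± 2.2, 5.86 ± 0.951 and 106 ± 26 CPM in WT. Tfrc was at 87.4 ± 17.8, 145 ± 15.5 and 245 ± 13.3 CPM. Of the lists, 18 of 31 haem and iron genes, 17 of 25 membrane genes, 19 of 28 S phase genes and 14 of 24 mitosis genes were higher in the high than in the middle range in all 12 libraries, beside 5.06% of all genes. In contrast, 20 of 24 ribosome biogenesis genes and 7 of 18 heat shock and chaperone genes were lower in all 12, beside 10.1% of all genes. Globin itself was part of the selection, so these are descriptions without a test.

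**Figure D2:**
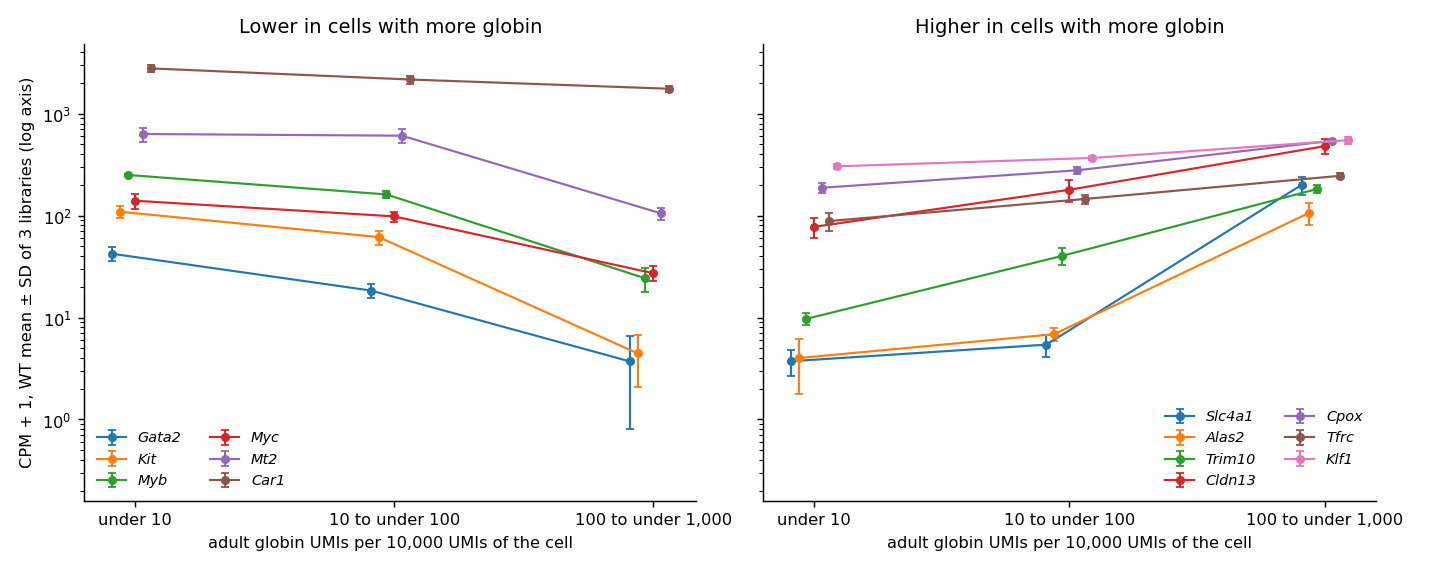
CPM + 1 (log axis, mean ± SD of the 3 WT libraries) of 13 genes in early erythroid cells of 3 ranges of adult globin UMIs per 10,000 UMIs. The left panel holds genes that were lower in cells with more globin, such as Gata2 and Kit, and the right panel genes that were higher, such as Slc4a1, Alas2 and Tfrc.

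Low globin values were near the background of free RNA. Median globin in the early erythroid cells of WT T1 was 13.3 per 10,000 against 12.6 in late granulocytes of the same library. In E2-KO T3 it was 35.2 against 35.4. Other libraries lay further above the background, such as WT T2 at 20.5 against 15.2 and G12D/E2-KO T2 at 10.1 against 6.51. The share of early erythroid cells under 10 per 10,000 was 9.30 to 31.6% in WT, 0.368 to 26.6% in E2-KO, 53.5 to 69.7% in G12D and 45.3 to 72.8% in G12D/E2-KO. These shares moved with the background of the library, and no difference in maturity was read from them. Klf1 UMIs occurred in 1.24 to 4.98% of late granulocytes, and 0.0656 to 1.58% of them passed the Car1 limit.

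Next, the abundance of early erythroid cells was compared between genotypes. They were 16.2, 16.6 and 18.1% of the cells in the WT libraries (T1, T2 and T3, the order used throughout). In E2-KO they were 17.8, 20.7 and 10.5%, in G12D 7.34, 17.1 and 6.08%, and in G12D/E2-KO 6.24, 8.10 and 9.55%. All G12D/E2-KO libraries lay below all WT libraries, and G12D T2 lay within the WT range. Over the 6 pairs of libraries with and without NRas G12D at the same time point and Ezh2 status, the share was 0.519-fold (log2 difference -0.95 ± 0.71 SD) and lower in 5 of 6 pairs. An exact two-sided sign-flip permutation test gave p = 0.0625, where 0.03125 is the smallest p possible, and 0.536 after Benjamini-Hochberg adjustment over 15 tests. Loss of Ezh2 had a log2 difference of -0.16 ± 0.66 SD and was lower in 3 of 6 pairs (exact permutation p = 0.594, adjusted 0.990). The limit of 1 Klf1 UMI was not scaled to depth. In E2-KO T3 and G12D/E2-KO T2 and T3, 33.2 to 41.0% of the early erythroid cells held 1 Klf1 UMI. In WT it was 9.73 to 14.5%. With no Klf1 limit the shares were 18.8, 17.8 and 20.1% in WT and 6.96, 12.7 and 13.9% in G12D/E2-KO. E2-KO T3 was then at 15.1%. A share of captured c-Kit-enriched cells can fall because these cells were fewer or because others were more, which cannot be told apart.

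Ratios to the neighbouring stages were more variable. There were 3.17, 1.67 and 2.65 in WT, 1.52, 2.44 and 0.474 in E2-KO, 1.12, 3.03 and 1.99 in G12D and 0.826, 1.55 and 2.27 in G12D/E2-KO early erythroid cells per globin-rich cell, where E2-KO T3 stood lowest. Per Gata2-positive progenitor there were 5.59, 4.11 and 3.51 in WT, 6.89, 7.92 and 5.23 in E2-KO, 2.52, 7.92 and 2.07 in G12D and 1.88, 2.61 and 2.66 in G12D/E2-KO. With NRas G12D this ratio changed by -0.90 ± 0.99 SD on the log2 scale, lower in 5 of 6 pairs (exact permutation p = 0.0938, adjusted 0.536). With no Klf1 limit the ratio was 6.49, 4.4 and 3.9 in WT. In G12D/E2-KO it was then 2.1, 4.08 and 3.88, and T2 lay above WT T3. None of the 15 tests passed after adjustment. The interaction of both mutations, with 3 values, could not go below 0.25, and an adjusted p under 0.05 was possible only with all 10 tests of a single mutation at their smallest p, so the lack of calls says little.

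Cells with a Gata2 UMI were compared at a fixed depth of 2000 UMIs per cell. They made up 6.32, 5.29 and 5.32% of early erythroid cells in WT, 6.91, 3.93 and 5.62% in E2-KO, 4.46, 5.34 and 7.10% in G12D, and 10.5, 9.03 and 14.1% in G12D/E2-KO. All G12D/E2-KO libraries were above all others here, an order that was not kept in several settings. Each setting used a single random draw of UMIs, so the draw and the setting cannot be told apart. In the cells as deposited G12D T1 was at 9.23%, with globin under 300 per 10,000 G12D T3 was at 10% and G12D/E2-KO T2 at 9.2%, and with cells selected after thinning G12D T3 was at 12.9% and G12D/E2-KO T1 at 10.1%. In late granulocytes, which should lack Gata2, the share at this depth was 0 to 1.21%, with median depths of 3398 to 6088 UMIs against 7550 to 15377. The shares without thinning were 18.4, 16.9 and 21.1% in WT, 21.9, 14.6 and 12.1% in E2-KO, 16.3, 16.3 and 23.9% in G12D and 32.1, 22.6 and 39.2% in G12D/E2-KO, where G12D T3 was above G12D/E2-KO T2. The interaction on the log2 scale was 1.07 ± 0.14 SD, in one direction at all 3 time points (exact permutation p = 0.25, the smallest possible, adjusted 0.536). This SD does not include the spread between random draws.

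**Figure D3:**
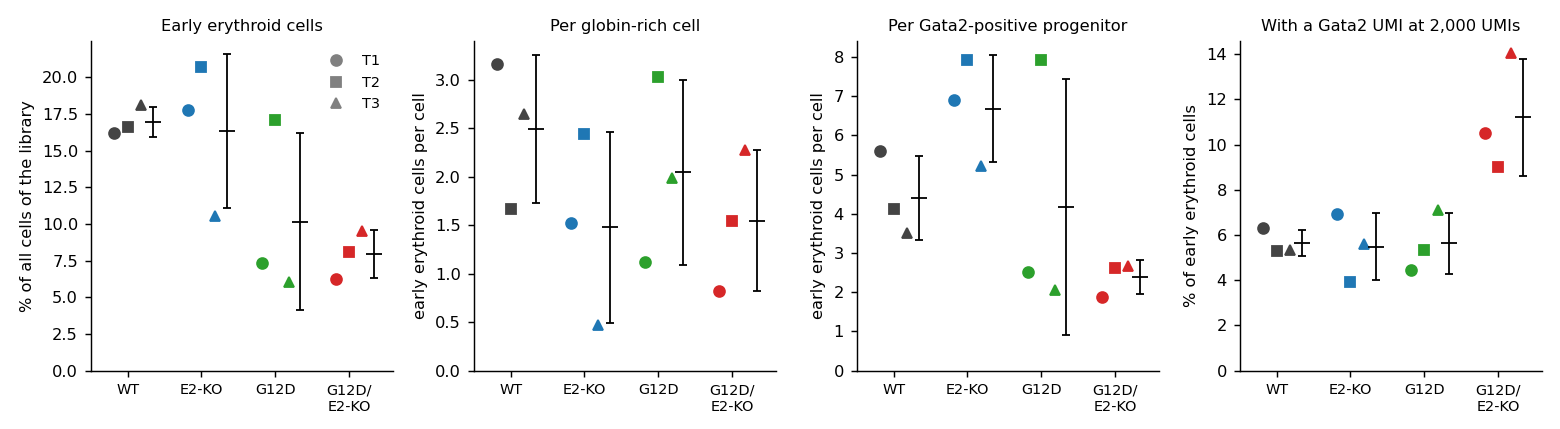
Early erythroid cells as a percentage of all cells of a library, per globin-rich cell and per Gata2-positive progenitor, and the percentage with a Gata2 UMI after thinning to 2000 UMIs. Points are single libraries, and bars give the mean ± SD of the 3 time points. In G12D/E2-KO the first panel runs from 6.24 to 9.55% and the last from 9.03 to 14.1%.

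Gene expression in the early erythroid cells was then compared between genotypes, with counts summed per library and edgeR's quasi-likelihood test with time point as a block. The targeted gene followed the labels. Ezh2 (chr6:47530139-47595341, - strand) was at 138, 141 and 137 CPM in WT, 29.9, 30.8 and 36.2 in E2-KO, 136, 147 and 134 in G12D and 33.3, 33.5 and 30.3 in G12D/E2-KO. It fell in E2-KO (log2 fold change -2.09 ± 0.13 SE, adjusted p = 1.11e-07) and in G12D/E2-KO (log2 fold change -2.05 ± 0.14 SE, adjusted p = 3.61e-07), with no overlap with WT or G12D. The fall was less even over globin ranges in G12D/E2-KO. Ezh2 was at 28.2 ± 2.48 CPM there under 10, 27.6 ± 6.44 from 10 to under 100 and 67.4 ± 32.6 from 100 to under 1000. In that last range it was at 39 ± 4.62 in E2-KO and 169 ± 15.9 in WT. Nras was at 81.9, 80.9 and 78 CPM in WT, 73.6, 75.6 and 64.5 in E2-KO, 105, 73.8 and 72.6 in G12D and 89, 67 and 77.8 in G12D/E2-KO, and its level did not pass in any genotype, which does not check the activating allele, because counts of the gene do not separate the alleles.

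In E2-KO against WT, 247 of 9980 genes passed at an adjusted p below 0.05 (2.47%), 201 higher and 46 lower. G12D against WT had 12 (0.12%), 10 higher and 2 lower. G12D/E2-KO against WT had 441 (4.42%), 291 higher and 150 lower. The interaction, which asks whether both mutations together differ from the sum of each, had 9 (0.0902%), 2 higher and 7 lower. WT alone lacked Mx1-Cre, so an effect of Cre would enter each mutant contrast and, with the opposite sign, the interaction. Cre and the mutations cannot be told apart in these contrasts. T2 against T1 had 0 (0%), with 373 genes at an unadjusted p below 0.05 and 4 calls by DESeq2, and T3 against T1 had 3 (0.0301%). The 3 mutant genotypes share the WT libraries, so their calls are not independent, and the median fold change of all genes was between 0.00 and 0.02 on the log2 scale in each. The counts rested on single libraries. For E2-KO, 112, 99 and 91 genes passed without WT T1, T2 and T3, 105 without E2-KO T1 and 402 without G12D/E2-KO T3. For G12D, 7 passed without WT T1 and 29 without G12D/E2-KO T3. For G12D/E2-KO, 124, 178 and 86 passed without WT T1, T2 and T3, 276 without E2-KO T1, 662 without E2-KO T3, 292 without G12D T1, and 292, 184 and 828 without G12D/E2-KO T1, T2 and T3. Without the time point as a block the counts were 184, 10 and 259.

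The stage regulator that moved most clearly was Gata2 (chr6:88193891-88207032, + strand), which rose in G12D/E2-KO. It was at 21.2, 19.4 and 20.6 CPM in WT, 24, 15.7 and 15.9 in E2-KO, 20.02, 15.2 and 31.2 in G12D and 47.9, 44.4 and 73.1 in G12D/E2-KO. The 3 G12D/E2-KO libraries stood above all 9 others (log2 fold change 1.47 ± 0.20 SE, adjusted p = 0.000325). It passed in neither single mutant, with log2 fold changes of -0.08 in E2-KO and 0.1 in G12D (adjusted p = 0.904 and 0.99). The interaction was 1.45 but did not pass (adjusted p = 0.0892). The call in G12D/E2-KO held without any 1 library. In cells with globin under 10 Gata2 was at 81.9 ± 7.03 CPM in G12D/E2-KO against 41.2 ± 6.58 in WT, and in cells from 10 to under 100 at 27 ± 2.79 against 17.4 ± 2.79. In cells from 100 to under 1000 the order was the reverse, at 1.22 ± 2.12 against 2.71 ± 2.91, which lie within each other's SD.

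Of 23 erythroid and megakaryocytic transcription factors tested, 2 rose and none fell in G12D/E2-KO (median log2 fold change 0.10, against 0.02 for all genes), where 4.42% of all genes were called. Fli1, a factor of the megakaryocytic branch, was the other, at 6.39, 7.3 and 4.88 CPM in WT, 7.53, 8.52 and 8.7 in E2-KO, 7.86, 6.59 and 8.18 in G12D and 9.58, 12.6 and 11.7 in G12D/E2-KO (log2 fold change 0.93 ± 0.24 SE, adjusted p = 0.0381). It passed in only 4 of the 12 fits that left out 1 library. In cells with globin under 10 Fli1 was at 14.2 ± 2.54 CPM in G12D/E2-KO against 13.9 ± 7.08 in WT. It was at 10.2 ± 3.9 against 4.73 ± 1.36 from 10 to under 100. From 100 to under 1000 it was at 6.66 ± 3.4 against 3.22 ± 1.65. Gata1 was at 159, 169.9 and 148 CPM in WT, 159, 168 and 141 in E2-KO, 140.1, 164 and 116 in G12D and 152, 126 and 111 in G12D/E2-KO and did not pass in any genotype. In E2-KO, 1 of the 23 passed beside 2.47% of all genes. It was Lyl1, a factor related to TAL1, at 51.9, 63.5 and 56.1 CPM in WT and 38.5, 37.1 and 17.8 in E2-KO (log2 fold change -0.85 ± 0.20 SE, adjusted p = 0.0311). It passed in 5 of the 12 fits that left out 1 library.

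The erythropoietin and Kit signalling list held the most calls among the lists of signals in G12D/E2-KO. Of 21 genes tested, 6 rose and 1 fell, beside 4.42% of all genes called, with a median of 0.39 against 0.02 for all genes. Kit (chr5:75574916-75656722, + strand) was at 57.5, 59.5 and 72.9 CPM in WT, 60.4, 49.6 and 68.5 in E2-KO, 67.5, 55.1 and 60.3 in G12D and 85.3, 86.1 and 106 in G12D/E2-KO, and all 3 G12D/E2-KO libraries were above all others (log2 fold change 0.6 ± 0.13 SE, adjusted p = 0.0199). In the low and middle ranges of globin, which were not matched between genotypes, Kit differed less. It was at 131 ± 15 CPM in G12D/E2-KO against 108 ± 14.2 in WT in cells under 10 and at 64.7 ± 18.6 against 60.5 ± 9.73 from 10 to under 100, and the libraries overlapped in both ranges. From 100 to under 1000 it was at 12.9 ± 8.71 against 3.46 ± 2.36. In all other cells of these libraries Kit was at 40.7, 80.1 and 73.6 CPM in G12D/E2-KO against 45.5, 43.9 and 51.2 in WT. The share of cells under 10, given above, was higher in G12D/E2-KO than in WT and moved with the free RNA of the library, and its part in the rise of Kit and Gata2 was not tested. Igf1r, the IGF1 receptor, was at 37.9, 36.2 and 39.7 CPM in WT, 59.5, 46.2 and 64.9 in E2-KO, 35, 38.3 and 49.6 in G12D and 66.2, 72.2 and 56 in G12D/E2-KO (log2 fold change 0.84 ± 0.17 SE, adjusted p = 0.0109). Kit, Igf1r and Ptpn6 lie outside the rule for named genes and were added after their values were seen. Epor itself was at 71.9, 69.6 and 70.2 CPM in WT, 64.8, 58 and 42.8 in E2-KO, 74.3, 80.8 and 66 in G12D and 66.6, 51.3 and 51.3 in G12D/E2-KO and did not pass.

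The list also holds known targets of STAT5, which acts downstream of these receptors, and only those that were called are given here. Others, such as Socs1, Socs2, Pim2, Bcl2l1 and Mcl1, were not among its calls. Pim1, a survival kinase, was at 30.8, 30.6 and 33.9 CPM in WT, 29.7, 30.4 and 58.4 in E2-KO, 50.04, 38.5 and 59.8 in G12D and 133, 59.2 and 76.2 in G12D/E2-KO (log2 fold change 1.51 ± 0.28 SE, adjusted p = 0.0148). G12D/E2-KO T1 held the highest value. Leaving out WT T1 (0.0834), WT T3 (0.109) or G12D/E2-KO T2 (0.0714) ended the call, with the adjusted p in parentheses. Cish, an inhibitor of cytokine receptors, was at 0.999, 0.776 and 0.61 CPM in WT, 2.02, 1.79 and 6.16 in E2-KO, 0, 1.47 and 3.07 in G12D and 19.2, 3.48 and 5.83 in G12D/E2-KO (log2 fold change 3.5 ± 0.77 SE, adjusted p = 0.0308). Its highest value was again G12D/E2-KO T1, and it did not pass without WT T1 (0.142), WT T2 (0.066), WT T3 (0.186), G12D/E2-KO T1 (0.0785) or G12D/E2-KO T2 (0.0695). Osm, the cytokine oncostatin M, was at 3.19, 3.88 and 2.59 CPM in WT and 12.8, 3.92 and 11.3 in G12D/E2-KO (log2 fold change 1.52 ± 0.38 SE, adjusted p = 0.0324). Bcl2, which blocks apoptosis, was at 4.99, 3.73 and 3.97 CPM in WT, 6.24, 5.22 and 4.35 in E2-KO, 5.36, 2.75 and 3.07 in G12D and 10.9, 7.83 and 12.1 in G12D/E2-KO (log2 fold change 1.33 ± 0.26 SE, adjusted p = 0.00879), and was lost without WT T1 (0.0577) or WT T3 (0.0715). The gene that fell was Ptpn6, the phosphatase SHP-1 that shuts off EPOR and KIT signals, at 26.4, 32.6 and 25.5 in WT and 16.9, 17.8 and 15.2 in G12D/E2-KO (log2 fold change -0.7 ± 0.17 SE, adjusted p = 0.0308). No gene of this list passed in E2-KO or G12D.

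Of 25 Ras pathway genes tested, 6 rose and none fell in G12D/E2-KO, beside 4.42% of all genes called (median 0.50). None passed in G12D alone, where 0.12% of all genes did (median 0.10, against 0.01 for all genes). Etv5, a transcription factor downstream of ERK, was at 1.2, 1.86 and 2.29 CPM in WT, 2.94, 1.79 and 2.9 in E2-KO, 5.0, 3.3 and 5.11 in G12D and 5.48, 2.61 and 12.1 in G12D/E2-KO (log2 fold change 1.85 ± 0.39 SE, adjusted p = 0.0134). In G12D its 3 libraries were also above the 3 WT libraries, but this did not pass (adjusted p = 0.501). Ier3, an immediate early gene, was at 2.4, 2.33 and 2.44 CPM in WT and 7.3, 3.48 and 12.8 in G12D/E2-KO (log2 fold change 1.74 ± 0.38 SE, adjusted p = 0.0158). Mapk3, which codes for ERK1, was at 18.8, 19.6 and 17.9 CPM in WT, 26.6, 28.5 and 19.9 in E2-KO, 22.5, 25.6 and 24.6 in G12D and 24.6, 34.4 and 34.2 in G12D/E2-KO (log2 fold change 0.79 ± 0.17 SE, adjusted p = 0.014). Rasgrp2, an exchange factor for Rap and Ras proteins, was at 13.6, 9.94 and 11.1 in WT and 23.3, 21.8 and 19.8 in G12D/E2-KO (log2 fold change 0.97 ± 0.22 SE, adjusted p = 0.0227). The other 2 were Myc and Ccnd2, which drive growth and the cell cycle, with log2 fold changes of 0.56 and 0.79 (adjusted p = 0.0248 and 0.0124). In cells with globin under 10 Myc was at 168 ± 28.1 CPM in G12D/E2-KO against 139 ± 24.7 in WT. It was at 132 ± 43.3 against 97.2 ± 11.4 from 10 to under 100, and the libraries overlapped in both ranges. From 100 to under 1000 it was at 58.3 ± 25.5 against 26.2 ± 4.54, without overlap. Etv5 was lost without WT T1 (0.0942), WT T3 (0.137) or G12D/E2-KO T3 (0.0947), and the other named genes of this list passed in 7 or 8 of the 12 fits. In E2-KO, 1 gene of the list passed, beside 2.47% of all genes. It was Ier2, which fell by 0.86 on the log2 scale.

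**Figure D4:**
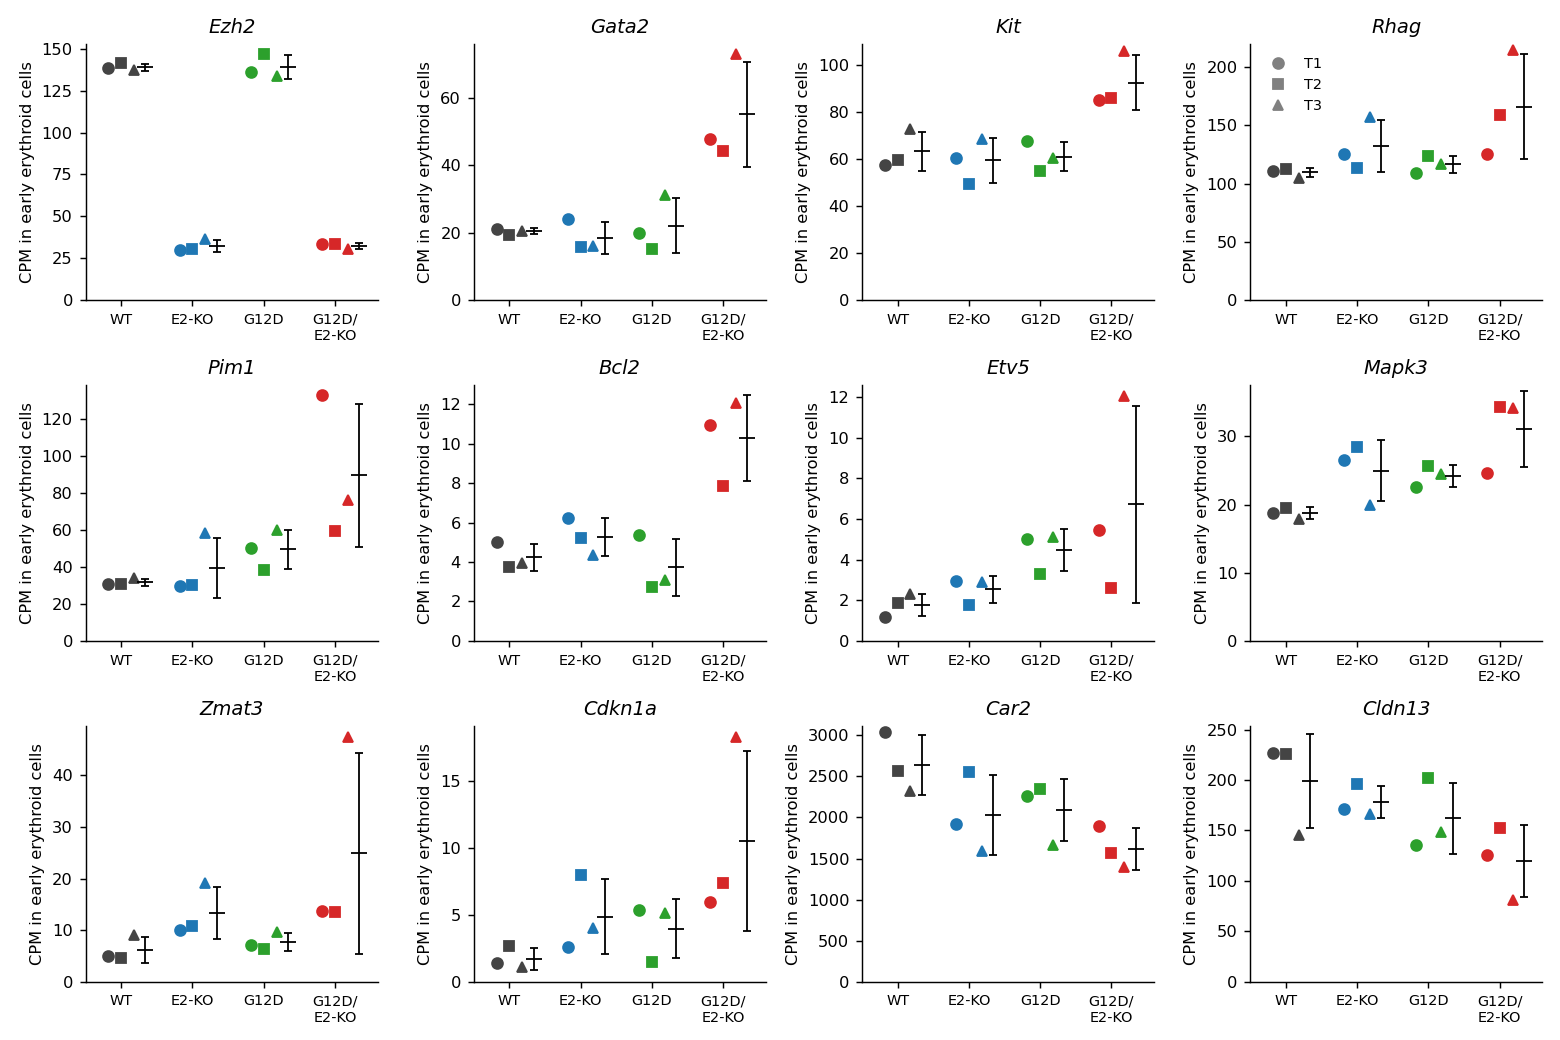
CPM of 12 genes in the early erythroid cells of each library, with the time point given by the shape of the point and the mean ± SD of 3 time points beside it. Ezh2 is between 29.9 and 36.2 CPM in the libraries with Ezh2 f/f. Gata2 and Kit are highest in the 3 G12D/E2-KO libraries, while Pim1, Etv5, Zmat3 and Cdkn1a have 1 G12D/E2-KO library far above the others.

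Among genes of the erythroid program, Car2 fell in G12D/E2-KO. Car2, carbonic anhydrase 2, was at 3035, 2571 and 2320.0 CPM in WT, 1925, 2559 and 1596 in E2-KO, 2265, 2351 and 1662 in G12D and 1902, 1562 and 1398 in G12D/E2-KO, and all 3 G12D/E2-KO libraries were below all 3 WT libraries (log2 fold change -0.65 ± 0.13 SE, adjusted p = 0.00861). It was lost without WT T1 (0.0803) or WT T3 (0.109). Within cells of globin 10 to under 100, a range not matched between genotypes, it was at 1807 ± 159 CPM in G12D/E2-KO and 2655 ± 440.0 in WT. Cldn13, a claudin of mouse erythroid cells, was at 226, 226 and 146 CPM in WT, 171, 196 and 167 in E2-KO, 135, 202 and 148 in G12D and 126, 152 and 80.9 in G12D/E2-KO (log2 fold change -0.68 ± 0.16 SE, adjusted p = 0.0218), where G12D/E2-KO T2 was above WT T3. Rhag, the Rh-associated glycoprotein of the red cell membrane, rose, at 111, 112 and 105 CPM in WT, 125, 114 and 157 in E2-KO, 109, 124 and 117 in G12D and 125, 159 and 214 in G12D/E2-KO (log2 fold change 0.63 ± 0.14 SE, adjusted p = 0.0206). Cldn13 passed in 9 and Rhag in 9 of the 12 fits that left out 1 library.

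Few genes of the erythroid lists passed in G12D/E2-KO, where 4.42% of all genes did. Of 19 early erythroid genes tested, none rose and 2 fell in G12D/E2-KO (median -0.22). Of 31 haem and iron genes none passed (median -0.11), and of 23 membrane genes 1 rose (median 0.14). The globins, Car1 and Klf1 stayed among all genes tested, but their changes are not read here, since the selection limited their levels. None of the 3 lists held a call in E2-KO or in G12D. Mt2 was at 465, 509 and 658 CPM in WT, 624, 588 and 926 in E2-KO, 606, 529 and 532 in G12D and 596, 598 and 1302 in G12D/E2-KO, which missed the threshold in G12D/E2-KO (log2 fold change 0.6 ± 0.17 SE, adjusted p = 0.0663), where DESeq2 gave 0.0413. Fam132a was at 1217, 1282 and 1204 CPM in WT, 882, 995 and 565 in E2-KO, 1188, 1396 and 998 in G12D and 779.9, 667 and 1025 in G12D/E2-KO. Its 6 values in genotypes with Ezh2 loss were all below the 3 WT values, but neither contrast passed (adjusted p = 0.117 in E2-KO and 0.113 in G12D/E2-KO).

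Of 12 p53 targets tested, 3 rose in G12D/E2-KO, beside 4.42% of all genes called (median 0.25). Zmat3, which codes for an RNA-binding protein, was at 4.99, 4.5 and 9.0 CPM in WT, 10.1, 10.9 and 19.2 in E2-KO, 7.15, 6.41 and 9.72 in G12D and 13.7, 13.5 and 47.4 in G12D/E2-KO and rose in G12D/E2-KO (log2 fold change 1.97 ± 0.23 SE, adjusted p = 7.99e-05) and in E2-KO (log2 fold change 1.17 ± 0.23 SE, adjusted p = 0.00755). Cdkn1a, the CDK inhibitor p21, was at 1.4, 2.64 and 1.07 CPM in WT, 2.57, 7.97 and 3.99 in E2-KO, 5.36, 1.47 and 5.11 in G12D and 5.93, 7.39 and 18.3 in G12D/E2-KO (log2 fold change 2.64 ± 0.61 SE, adjusted p = 0.0387), with its highest value in G12D/E2-KO T3. Phlda3, an inhibitor of AKT, was at 9.19, 5.28 and 6.87 CPM in WT and 19.6, 6.96 and 19.8 in G12D/E2-KO (log2 fold change 1.17 ± 0.31 SE, adjusted p = 0.0442). Zmat3 in G12D/E2-KO held without any 1 library, while Cdkn1a passed in 5 and Phlda3 in 3 of the 12 fits. The cell cycle lists stood near that background. Of 24 mitosis genes 1 rose, Pttg1, and of 28 S phase genes 2 fell, Ccne1 (cyclin E1) by 0.72 and Gins2 (of the replicative helicase) by 0.54 on the log2 scale (adjusted p = 0.027 and 0.0365). In E2-KO the CDK inhibitor Cdkn1b (p27) was at 18.6, 12.3 and 14 CPM in WT and 7.34, 8.39 and 8.34 in E2-KO (log2 fold change -0.86 ± 0.22 SE, adjusted p = 0.043), a call that held in 4 of 12 fits.

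Several single genes changed in both genotypes with Ezh2 f/f. Bmi1, of Polycomb repressive complex 1, was at 26.6, 23 and 22.6 CPM in WT, 86.8, 83.9 and 85.5 in E2-KO, 26.4, 20.7 and 22 in G12D and 69.8, 80.5 and 78.2 in G12D/E2-KO (log2 fold change 1.86 ± 0.14 SE, adjusted p = 5.81e-07 in E2-KO). Of 28 Polycomb genes tested, Bmi1 rose and Ezh2 fell in both genotypes, and no other passed, beside 2.47% of all genes called in E2-KO and 4.42% in G12D/E2-KO. Luzp1, a leucine zipper protein, was at 5.99, 4.81 and 4.88 CPM in WT, 32.1, 30.4 and 32.6 in E2-KO, 5.36, 4.03 and 1.53 in G12D and 25.6, 20.01 and 35.8 in G12D/E2-KO (log2 fold change 2.63 ± 0.22 SE, adjusted p = 2.10e-06 in E2-KO). Ryk, a Wnt receptor, rose by 1.79 in E2-KO and 1.59 in G12D/E2-KO on the log2 scale. Gkap1, Cecr2 and Macrod2 rose by 2.56, 1.57 and 1.53 in E2-KO, and by 2.3, 1.47 and 1.32 in G12D/E2-KO. Arf5, a small GTPase, fell and was at 500.5, 497 and 390.0 CPM in WT, 165, 180.1 and 144 in E2-KO, 399, 439 and 339 in G12D and 164, 178 and 156 in G12D/E2-KO (log2 fold change -1.48 ± 0.11 SE, adjusted p = 4.08e-07 in E2-KO). Each of these genes passed in E2-KO in all 12 fits that left out 1 library. Ezh2 lies on chromosome 6, where 17 of 466 tested genes (3.65%) passed in E2-KO and 23 (4.94%) in G12D/E2-KO, beside 2.47 and 4.42% of all genes. The part of sequence carried with the Ezh2 f/f allele was not tested.

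Of genes tied to fetal growth, 2 of 7 tested rose in G12D/E2-KO, beside 4.42% of all genes called. Lin28b, which blocks let-7 maturation in fetal blood cells, had 0 of 18000930 UMIs in WT, 15 UMIs in E2-KO and 23 in G12D/E2-KO. Set against 3 counts over the 3 WT libraries, that is 5.81-fold higher in E2-KO and 19.5-fold higher in G12D/E2-KO. The UMIs of the mutants were taken as exact, so these folds are not lower bounds. It was at 0.918, 0.55 and 2.17 CPM in E2-KO, 3.65, 1.74 and 4.28 in G12D/E2-KO and 0 in G12D. Hmga2, a let-7 target and chromatin protein, was at 2.0, 1.4 and 0.305 CPM in WT, 2.57, 1.1 and 1.81 in E2-KO, 0.357, 0.549 and 0.511 in G12D and 5.93, 1.74 and 15.2 in G12D/E2-KO (log2 fold change 2.58 ± 0.60 SE, adjusted p = 0.0269), with G12D/E2-KO T2 within the WT range.

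Of 11 metal handling genes tested, 2 rose in E2-KO and the same 2 in G12D/E2-KO, beside 2.47 and 4.42% of all genes called (medians 0.21 and 0.52). Slc30a10, a manganese exporter, was at 5.79, 2.79 and 1.07 CPM in WT, 11.9, 14.3 and 11.2 in E2-KO, 5.72, 4.94 and 5.62 in G12D and 21, 17 and 5.06 in G12D/E2-KO (log2 fold change 2.07 ± 0.38 SE, adjusted p = 0.00818 in E2-KO, log2 fold change 2.25 ± 0.40 SE, adjusted p = 0.0074 in G12D/E2-KO). Atox1, the copper chaperone, was at 368, 394 and 409.5 CPM in WT, 597, 537 and 689.7 in E2-KO, 516, 479.8 and 467 in G12D and 520.3, 519.8 and 580.2 in G12D/E2-KO (log2 fold change 0.66 ± 0.12 SE, adjusted p = 0.00376 in E2-KO, log2 fold change 0.52 ± 0.12 SE, adjusted p = 0.0199 in G12D/E2-KO). For Atox1 every mutant library was above every WT library, though the G12D contrast did not pass (adjusted p = 0.591). Of 15 heat shock genes 2 passed in G12D/E2-KO, and Hsp90aa1 and Hsph1 fell in G12D/E2-KO by 0.55 and 0.6 on the log2 scale (adjusted p = 0.0199 and 0.0305).

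**Figure D5:**
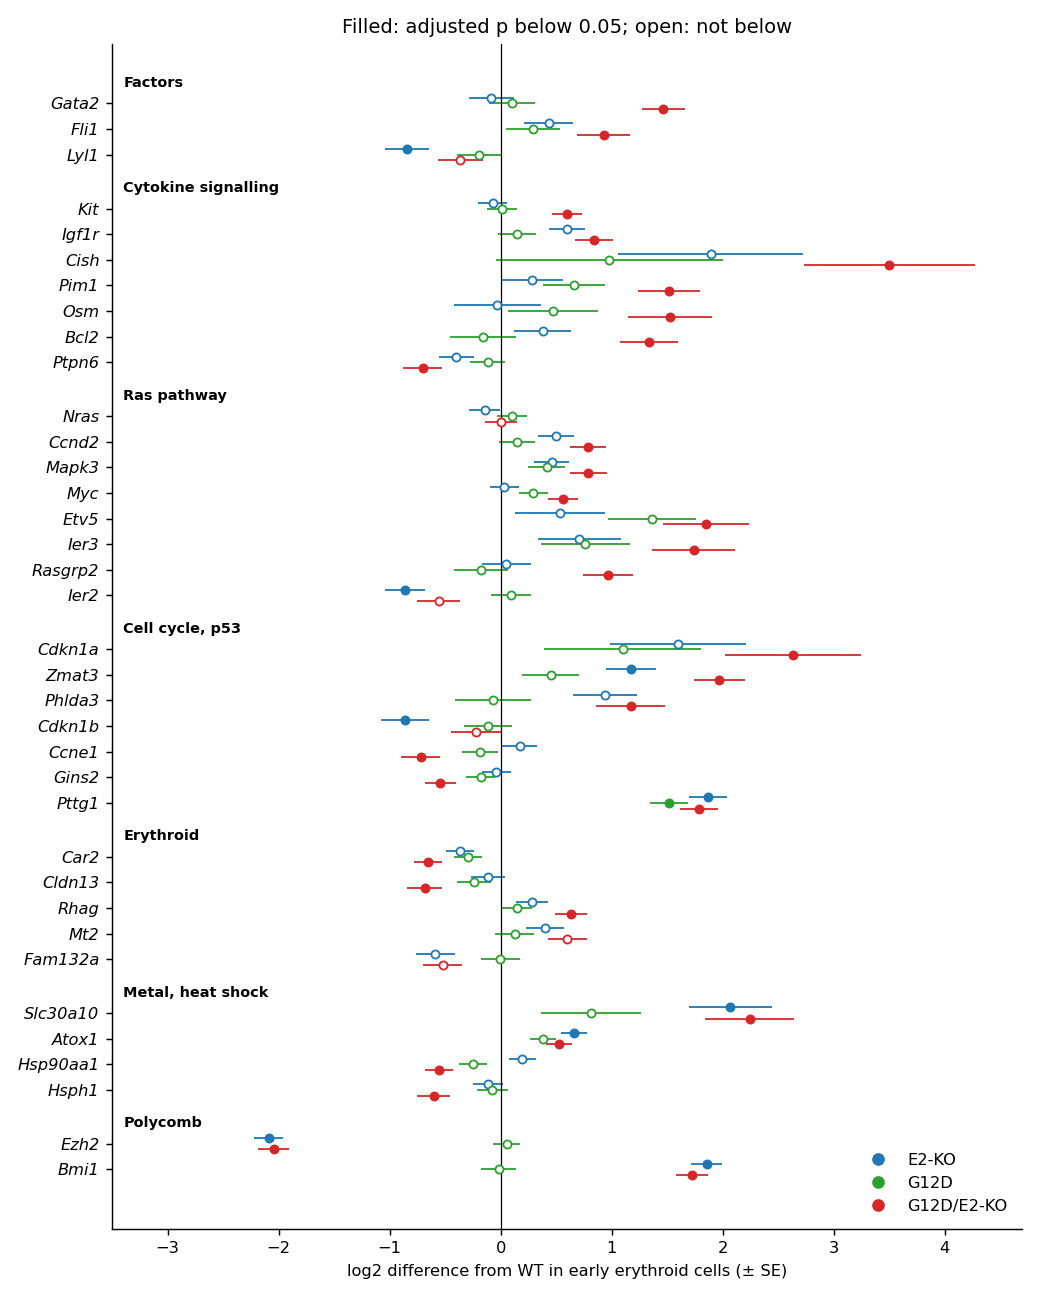
Log2 difference from WT (± SE) in the early erythroid cells for a choice of list genes that passed in at least 1 genotype, with Nras, Mt2 and Fam132a. Called markers of other cells, such as Lcn2, Gp1bb and Il1rl1, are not drawn, nor are Hmga2 and Ly6e. Filled points have an adjusted p below 0.05 and open points do not. Gata2, Kit, Pim1, Bcl2 and Etv5 are filled in G12D/E2-KO alone, which is not a test against the single mutants, and Ezh2 and Bmi1 are filled in both genotypes with Ezh2 loss.

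Other genes with large changes in G12D/E2-KO were Sapcd1 (log2 fold change 2.69) and Col5a1 (1.56), which also passed in E2-KO (1.1 and 1.19). Prelid2 was at 49.5, 54.2 and 56.8 CPM in WT and 17.3, 17 and 33.1 in G12D/E2-KO (log2 fold change -1.2 ± 0.19 SE, adjusted p = 0.00117). Lower genes also included Gdf3, Galns, Emc9, Sh2d4a, Asna1, Ifi30 and Casp6, with log2 fold changes from -1.05 to -0.87. Markers of other cells were called too in G12D/E2-KO. Gp1bb (megakaryocytes) was at 0.799, 0.776 and 0.61 CPM in WT and 2.74, 1.3 and 13.2 in G12D/E2-KO, and Ms4a2 (mast cells and basophils) at 0.999, 0.466 and 0.458 and 10.5, 1.3 and 12.8. Il1rl1, the receptor of IL-33 and a marker of mast cells and basophils, was at 35, 29.97 and 32.3 CPM in WT and 41.5, 47.9 and 63 in G12D/E2-KO (log2 fold change 0.7 ± 0.16 SE, adjusted p = 0.0234), and made up most of its list's sum. Their lists summed to 34 to 46.5 CPM in WT and 40.6 to 76.2 in G12D/E2-KO for 12 megakaryocyte markers, and to 35.1 to 41.9 and 53.9 to 87.9 for 9 basophil and mast cell markers, with no marker of either list at 0 in all libraries. Their part in the rise of Gata2 and Kit, which these cells also express, was not tested. Ctla2a, of the stem cell list, rose by 1.5. The 13 markers of that list summed to 136 to 150 CPM in WT and 157 to 192 in G12D/E2-KO, without overlap. The 8 granulocyte-macrophage progenitor markers summed to 529 to 626 and 615 to 1016. The part of these lists in the rises given above was not tested either. Ly6e was the 1 of 21 interferon genes that passed (log2 fold change 0.68 ± 0.16 SE, adjusted p = 0.0291), beside 4.42% of all genes called, with a list median of 0.66.

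Several genes that fell in E2-KO are late granulocyte genes. Of 10 late granulocyte markers 3 passed, all lower (Lcn2, Chil3 and Mmp8), beside 2.47% of all genes called, with a list median of -1.57 against 0.00 for all genes. Lcn2, a siderophore-binding protein of neutrophil granules, was at 109, 77.3 and 106 CPM in WT, 36.7, 22.3 and 26.5 in E2-KO, 145, 65.7 and 101 in G12D and 104, 59.6 and 36.6 in G12D/E2-KO (log2 fold change -1.78 ± 0.26 SE, adjusted p = 0.00348). Ifitm6, Pglyrp1, Anxa1, Hp and Fcer1g, which neutrophils and their precursors express, fell by 2.09, 1.41, 1.17, 0.97 and 0.95 on the log2 scale. The summed late granulocyte markers in all other cells of E2-KO were also below WT, as given above, and the part of free RNA in these calls was not tested.

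In G12D against WT, 12 genes passed and Pttg1, Lyrm7, Tpm3-rs7 and Gm10116 were those named by the rule. Pttg1, which codes for securin, was at 46.9, 38.4 and 34.2 CPM in WT, 164, 159.6 and 106 in E2-KO, 127, 86.4 and 116 in G12D and 165, 134 and 100.3 in G12D/E2-KO. It rose in G12D (log2 fold change 1.52 ± 0.17 SE, adjusted p = 0.000571), E2-KO (log2 fold change 1.87 ± 0.17 SE, adjusted p = 5.30e-06) and G12D/E2-KO (log2 fold change 1.79 ± 0.17 SE, adjusted p = 1.32e-05), and no mutant value overlapped with WT. The other 23 mitosis genes passed in no genotype. Lyrm7, a mitochondrial assembly factor, was at 5.59, 5.9 and 4.27 CPM in WT, 24.2, 29.7 and 15.6 in E2-KO, 26.8, 16.1 and 16.9 in G12D and 32.9, 15.2 and 24.5 in G12D/E2-KO (log2 fold change 1.93 ± 0.27 SE, adjusted p = 0.00391 in G12D). Tpm3-rs7, a related sequence of Tpm3 whose reads can be shared with its parent gene, was at 4.39, 3.88 and 4.42 CPM in WT, 32.1, 28.5 and 5.44 in E2-KO, 33.2, 52.7 and 23.5 in G12D and 4.11, 3.92 and 3.89 in G12D/E2-KO. Thus E2-KO T3 and the 3 G12D/E2-KO libraries were at the WT level, and the interaction was -5.47 (adjusted p = 0.0038). Pttg1, Mnd1 and Mtfp1 also passed for the interaction, at -1.6, -1.85 and -1.26 on the log2 scale, in 9, 2 and 6 of the 12 fits that left out 1 library. Pttg1 held in G12D without any 1 library, whereas Gm10116 passed in 4 of the 12 fits. The strain of origin of the chromosomes around these genes is not given in the sources used here.

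Between T3 and T1, Lgals1 (galectin 1) and Rgcc (a regulator of cell cycle) fell in all 4 genotypes. Lgals1 was at 95.3, 49.9 and 25.5 CPM in WT, 74, 69.6 and 36.2 in E2-KO, 120.5, 48.7 and 52.2 in G12D and 207, 83.5 and 67.3 in G12D/E2-KO (log2 fold change -1.45 ± 0.21 SE, adjusted p = 0.0401). Rgcc was at 164, 178 and 92.2 CPM in WT, 159.7, 168 and 108 in E2-KO, 126, 130.4 and 75.2 in G12D and 192, 159.6 and 121 in G12D/E2-KO (log2 fold change -0.68 ± 0.10 SE, adjusted p = 0.0238). The third call was Xist, which was higher. Both falls held in 4 of the 12 fits that left out 1 library. Xist was high in 3 of the 4 T3 libraries, so sex and time overlap in this contrast. In G12D/E2-KO, where Xist was low at all 3 time points, both genes were also lower at T3 than at T1. This is no separate support, since these libraries entered the contrast and the rule for named genes required one direction in all 4 genotypes. With Xist as a covariate neither gene passed, and the log2 fold changes were -1.52 for Lgals1 and -0.62 for Rgcc. They rest on the single Xist-low T3 library, so sex and time were not separated.

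Finally, effects in the early erythroid cells were tested against the same effects in other cells of the same libraries. Against globin-rich cells, 9089 genes were tested, and the effect differed for 20 in E2-KO (0.22%), for 35 in G12D (0.385%) and for 43 in G12D/E2-KO (0.473%). The linker histone H1f0 was among them in both genotypes with Ezh2 loss. Its log2 fold change in the early erythroid cells was below that in the globin-rich cells by 2.83 in E2-KO and 2.39 in G12D/E2-KO (-2.83 ± 0.23 SE, adjusted p = 2.16e-18 and -2.39 ± 0.24 SE, adjusted p = 1.01e-12), though it was lost with the cells as deposited. Atox1 differed in the other direction in G12D (0.96 ± 0.18 SE, adjusted p = 0.000393) and in G12D/E2-KO (0.88 ± 0.18 SE, adjusted p = 0.00173). Fabp5, a fatty acid binding protein, differed in E2-KO (1.38 ± 0.28 SE, adjusted p = 0.00279), and Mif, a cytokine, in G12D (1.13 ± 0.19 SE, adjusted p = 4.17e-05). Hmox1, haem oxygenase 1, differed in G12D/E2-KO (4.82 ± 0.98 SE, adjusted p = 0.00173). Hmox1 is also a macrophage marker. Of 9 macrophage markers tested Hmox1 passed, all 9 differences were above 0 and their median was 2.52, against 0.02 for all genes. Of 8 monocyte markers none passed, 7 differences were above 0 and the median was 1.83. In the early erythroid cells 11 macrophage markers summed to 51.6 to 60.4 CPM in WT and 43.9 to 56.1 in G12D/E2-KO, and 8 monocyte markers to 11.4 to 13.3 and 13.5 to 19.6. Their part in the difference of Hmox1 was not tested. The genes given here as different were also called by DESeq2, as were those named below as different from all other cells.

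Against all other cells, 47 of 12162 genes (0.386%) differed in E2-KO and 17 (0.14%) in G12D/E2-KO. For G12D 0 genes (0%) passed by edgeR, with 808 at an unadjusted p below 0.05 and 4 by DESeq2. Gdpd3, a phospholipase, differed both in E2-KO (2.31 ± 0.42 SE, adjusted p = 0.0168) and in G12D/E2-KO (3.23 ± 0.40 SE, adjusted p = 0.00141). Rnf144a, a ubiquitin ligase, differed in the same 2 genotypes (1.64 ± 0.21 SE, adjusted p = 0.000457 and 1.43 ± 0.23 SE, adjusted p = 0.00323). Bcl2 rose more in the early erythroid cells of G12D/E2-KO than in all other cells (1.33 ± 0.24 SE, adjusted p = 0.0149), and so did Cdc25b, the phosphatase that starts mitosis (1.49 ± 0.22 SE, adjusted p = 0.00154). For Gata2 the difference in G12D/E2-KO was 0.85 ± 0.26 SE and did not pass (adjusted p = 0.243). Gata2 in all other cells was at 16.3, 27.9 and 68.8 CPM in G12D/E2-KO against 18.1, 19.9 and 24.1 in WT. Counts of these differences without 1 library ran from 7 to 67, 11 to 77 and 16 to 174 against globin-rich cells, and from 1 to 107, 0 to 38 and 9 to 54 against all other cells, for E2-KO, G12D and G12D/E2-KO in that order.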

How the data were processed

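Bone marrow c-Kit+ cells were profiled by 3' single-cell RNA-seq (10x Genomics). The authors deposited 1 table of UMI counts per library, not normalized, made with Cell Ranger on mm10, after removal of cells with over 10% mitochondrial UMIs and of doublets called by Scrublet. Cells of G12D T1 with a cosine above 0.9 to a G12D/E2-KO T1 cell, over genes ranked 301 to 8300 by total UMIs, were dropped. No further doublet caller was run.

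Counts of the selected cells were summed per library and tested with edgeR 4.0.16 in R 4.3.3 (filterByExpr, TMM, robust quasi-likelihood fit, time point as block, 6 residual degrees of freedom) with Benjamini-Hochberg adjustment over 9980 genes at a threshold of 0.05. The biological coefficient of variation was 0.138. DESeq2 1.42.0 was an alternative. Differences of effects between kinds of cell used library as block. The script was tested on simulated data. Ratios and shares used exact sign-flip permutation tests. Intervals and floors (3 counts) cover counting error only, and the floors that of WT alone.

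Named genes were the 10 largest changes in each direction that passed, went one way at all 3 time points, were not sex-linked and had an average log2 CPM of at least 4, up to 4 called genes of each list, and Ezh2, Nras, Mt2 and Fam132a. For differences between kinds of cell only those that DESeq2 also called are named, a choice made after the values were seen. The cells and gene lists were chosen with earlier results of these data known. Replicate numbers pair libraries because the labels tie them to time points. Deviations from the group means correlated with a median of 0.108 over 18 pairs of the same time point (-0.134 to 0.340) and -0.0759 over 36 other pairs. Gene positions are from GENCODE M21 on GRCm38.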

Additional observations from a re-analysis of the deposited data

Results flagged for a closer look

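The results gathered here are effects that differed between groups by a test of the difference itself, given on the log2 scale without an explanation. For the interaction, the effect of both mutations against the sum of the single effects was -5.47 for Tpm3-rs7, -1.85 for Mnd1, -1.60 for Pttg1 and -1.26 for Mtfp1. WT alone lacked Mx1-Cre, which also enters the interaction, and its part in these values was not tested.

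Between early erythroid and globin-rich cells, the E2-KO effect was higher in the early erythroid cells by 1.38 for Fabp5, 1.22 for Tagln2 and 0.87 for Cst3. It differed by -2.83 for H1f0 and by -1.32 for S100a13. The G12D effect differed by 1.47 for Mpo, a granule enzyme of granulocyte-macrophage progenitors, 1.38 for H2afy, 1.13 for Mif, 1.11 for mt-Nd2, 0.96 for Atox1 and -1.59 for Epdr1. In this G12D difference all 8 granulocyte-macrophage progenitor markers were above 0, with a median of 1.28 and Mpo called, and all 8 monocyte markers, with a median of 2.35 and Irf8 called, against 0.06 for all genes. The first list summed to 529 to 626 CPM in the early erythroid cells of WT and 609.8 to 1015 in G12D, and the second to 11.4 to 13.3 and 10.6 to 36.1, and their part in these values was not tested. The G12D/E2-KO effect differed by 2.08 for Lgals1, 2.00 for Sepp1, 4.82 for Hmox1, 0.88 for Atox1, -2.39 for H1f0 and -1.36 for Chchd7. The H1f0 differences did not pass with the cells as deposited, where G12D T1 still holds cells that G12D/E2-KO T1 also holds.

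Between early erythroid and all other cells, the E2-KO effect differed by 2.31 for Gdpd3, 1.84 for Chd7, 1.64 for Rnf144a, 1.55 for Phactr2, 1.29 for Nrgn, 1.24 for Fkbp1a and 1.06 for Zmpste24. It differed by -2.11 for Cyfip2, -0.79 for Pttg1, -0.77 for Frat2, -0.71 for Ctnna1 and -0.25 for Rps18. The G12D/E2-KO effect differed by 3.23 for Gdpd3, 1.66 for Anxa2, 1.49 for Cdc25b, 1.43 for Rnf144a, 1.33 for Bcl2, 0.87 for AW112010 and 0.79 for 2310001H17Rik.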

How the results depend on the processing

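The tests of shares and ratios had almost no room to pass after adjustment, so that none did under any alternative says nothing on stability. Their differences changed sign in 43 comparisons with an alternative, 36 of them without 1 library, within the ranges given below (log2 scale). The other 7 follow. With no Klf1 limit the share of all cells had an E2-KO effect of 0.0092 and the number per globin-rich cell a G12D effect of 0.067. With cells thinned to 2000 UMIs the interaction was 0.018 for the share of all cells and 0.091 for the share with globin of at least 100 per 10,000. As a share of cells other than late granulocytes it was 0.107. The E2-KO effect on the number per Gata2-positive progenitor was -0.029 with Car1 of at least 10 and -0.0094 with globin under 300 per 10,000. Counts of calls are given here for E2-KO, G12D, G12D/E2-KO, the interaction, T2 and T3, where they differed by over 1.5 times from 247, 12, 441, 9, 0 and 3. With no filter on low counts they were 539, 145, 923, 101, 118 and 225. With cells thinned to 2000 UMIs they were 29, 2, 44, 3, 3 and 1. With Xist as a covariate, an alternative for sex, they were 404, 29, 844, 29, 4 and 289. DESeq2 gave 26 for G12D, 17 for the interaction, 4 for T2 and 18 for T3. With only the 2 genotypes of a contrast in the fit, E2-KO had 527 and G12D 58. With the cells as deposited G12D had 7. T3 had 7 with Car1 of at least 10 per 10,000 and 7 with globin under 300 per 10,000.

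The replicate block is the time point in comparisons of genotypes and the library in differences of effects. Without the replicate block G12D/E2-KO had 259 calls and T3 had 0, and E2-KO, G12D and the interaction had 184, 10 and 7. Without the replicate block the differences of effects fell to 1, 0 and 2 calls against globin-rich cells and to 0, 0 and 0 against all other cells, for E2-KO, G12D and G12D/E2-KO. Against globin-rich cells DESeq2 gave 6, 13 and 6 in place of 20, 35 and 43, and thinned cells 3, 6 and 8. With the cells as deposited E2-KO had 12 and G12D/E2-KO 26, with Car1 of at least 10 G12D had 22, and G12D/E2-KO had 67 with globin under 300 and 75 with no Klf1 limit. Against all other cells, no filter gave 170, 184 and 309 in place of 47, 0 and 17. Cells as deposited gave 23 for E2-KO and 4 for G12D/E2-KO, Car1 of at least 10 gave 24, 18 and 6, thinned cells gave 7 for E2-KO and 1 for G12D, and G12D had 4 by DESeq2, 5 with globin under 300 and 1 with no Klf1 limit. The difference for Pttg1 between early erythroid and all other cells in E2-KO turned to 0.25 in thinned cells. The causes were not tested.

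Leaving out 1 library at a time gave 91 to 402, 7 to 29, 86 to 828, 4 to 26, 0 to 4 and 1 to 9 calls. Differences of effects ran from 7 to 67, 11 to 77 and 16 to 174 against globin-rich cells and from 1 to 107, 0 to 38 and 9 to 54 against all other cells. The share of all cells ran from -0.33 to 0.02 (E2-KO), -1.14 to -0.82 (G12D) and -0.88 to 0.53 (interaction) on the log2 scale. The number per globin-rich cell ran from -0.95 to -0.34 (E2-KO), -0.52 to 0.23 (G12D) and -0.45 to 1.65 (interaction) on the log2 scale. The number per Gata2-positive progenitor ran from -0.16 to 0.35 (E2-KO), -1.27 to -0.71 (G12D) and -1.64 to -0.47 (interaction) on the log2 scale. The share with globin of at least 100 per 10,000 ran from 0.07 to 0.45 (E2-KO), -0.33 to 0.10 (G12D) and -1.03 to 0.31 (interaction) on the log2 scale. Globin was part of the selection, so the ranges of this share are descriptions only. The share with a Gata2 UMI at fixed depth ran from 0.31 to 0.64 (E2-KO), 0.35 to 0.71 (G12D) and 1.01 to 1.15 (interaction) on the log2 scale. Leaving out members rich in markers of other cells, more than 3 times the median of their library (64 cells), was chosen after seeing the data, because the planned limit of 20 per 10,000 would have kept 371 of 4115 cells and was not run. For the differences between kinds of cell, fits of 2 genotypes only and with Xist as covariate were not run. Over the named genes, 4264 comparisons with an alternative stayed on their side of the threshold, 1020 lost and 27 gained the call, and 1 reversed. Of the 4264, 73 changed sign, all of Ezh2, Fam132a, Mt2 or Nras where they had no call. Depth limits genes of a few CPM, such as Cish, Lin28b and Ms4a2.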
